A study of Mus musculus with 18 samples.

Results

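Mouse sperm carry their own set of glycolytic enzymes, and 7 genes of that set were followed here: Gapdhs, Pgk2, Pgam2, Eno4, Aldoart1, Aldoart2 and Ldhc. They were taken by gene symbol from the deposited table of 20985 genes. Their measured values were not part of that rule, but earlier results of these data were known when the set was chosen. All 7 were found once, and all 7 passed the filter on low values that left 14164 genes for testing. The data are RNA sequencing of testis tissue; the mice were 10 weeks old and of the outbred ICR stock. Each of 6 groups had 3 libraries. Nothing in the labels ties a library to its own animal, so the p-values cover library-to-library spread, which may be technical. The control group is described by its name alone. The AOS group was given alginate oligosaccharide, a mix of short chains cut from a seaweed polysaccharide, dosed at 10 mg/kg. The STZ group was given streptozotocin, which kills the insulin-making cells of the pancreas and serves as a laboratory model of diabetes. The group STZ+AOS10mg/kg had both agents (STZ + AOS below). The groups STZ+AOS10mg/kg-FMT and STZ+control-FMT had streptozotocin and a faecal microbiota transplant, and are called the AOS-transplant and control-transplant groups. Streptozotocin is thus shared by 4 of the 6 groups. The labels give no streptozotocin dose, no blood glucose and no interval between treatments. The series title names the question: whether transplants tied to AOS reverse what streptozotocin does to the testis.

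Glycolysis splits glucose into pyruvate, which lactate dehydrogenase turns into lactate, and in mouse sperm this pathway supplies much of the ATP for swimming. Several of its enzymes exist there as forms made only or mainly in germ cells, some of them retrogenes, which are intronless copies of a gene used throughout the body. The X-linked gene of the common phosphoglycerate kinase is silenced during male meiosis, and the autosomal retrogene Pgk2 supplies the enzyme afterwards. Most of these transcripts appear in meiotic spermatocytes or in spermatids, the haploid cells that become sperm, and many of the proteins end up on the fibrous sheath, a scaffold in the sperm tail.

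In the GRCm38 mouse assembly (mm10), Pgk2 (ENSMUSG00000031233.6) lies at chr17:40207015-40208640 on the minus strand, Aldoart1 (ENSMUSG00000059343.4) at chr4:72850583-72852634 on the minus strand and Aldoart2 (ENSMUSG00000063129.1) at chr12:55565239-55566896 on the plus strand. In the GENCODE annotation each of these 3 genes has 1 exon. Gapdhs (ENSMUSG00000061099.12; chr7:30729775-30743681, minus strand) has 11 exons in its longest coding transcript, Pgam2 (ENSMUSG00000020475.3; chr11:5801640-5803733, minus strand) has 3, and Eno4 (ENSMUSG00000048029.10; chr19:58943425-58971421, plus strand) has 14. Ldhc (ENSMUSG00000030851.15; chr7:46861203-46878142, plus strand) has 8 exons and follows Ldha, at chr7:46841475-46855627 on the same strand. The lengths of their transcripts run from 840 bases (Pgam2) to 2567 bases (Eno4).

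The RefSeq promoter table (GRCm38.p6) matched 6 of the 7 genes, all but Aldoart1. The 250 bases before the start are printed for 5 of them, namely Gapdhs, Pgk2 and Pgam2 of successive steps, Ldhc, the one gene not called between STZ and control, and Eno4, whose levels followed none of the others. Capitals mark the letters of 6 motifs, searched on both strands: the cyclic AMP response element TGACGTCA and its shorter form TGACG, the GC box GGGCGG, the core promoter letters TATAAA, the upstream letters CCAAT and the X-box part GTTGCC. The full element contains the shorter form, so a match to it would count for both. Windows run 5′ to 3′ in the direction of transcription and lie at chr7:30743682-30743931 (Gapdhs, minus strand), chr17:40208610-40208859 (Pgk2, minus strand), chr11:5803797-5804046 (Pgam2, minus strand), chr19:58943175-58943424 (Eno4, plus strand) and chr7:46861013-46861262 (Ldhc, plus strand).
Gapdhs: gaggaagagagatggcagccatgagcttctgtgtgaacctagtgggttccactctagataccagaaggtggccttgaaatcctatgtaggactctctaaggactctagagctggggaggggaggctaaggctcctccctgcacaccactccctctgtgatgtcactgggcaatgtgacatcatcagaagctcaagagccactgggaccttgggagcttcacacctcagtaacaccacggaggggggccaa
Pgk2: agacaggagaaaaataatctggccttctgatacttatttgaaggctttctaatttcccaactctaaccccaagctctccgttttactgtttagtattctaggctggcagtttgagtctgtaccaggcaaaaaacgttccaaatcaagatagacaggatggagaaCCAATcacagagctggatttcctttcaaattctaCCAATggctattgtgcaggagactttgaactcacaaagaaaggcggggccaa
Pgam2: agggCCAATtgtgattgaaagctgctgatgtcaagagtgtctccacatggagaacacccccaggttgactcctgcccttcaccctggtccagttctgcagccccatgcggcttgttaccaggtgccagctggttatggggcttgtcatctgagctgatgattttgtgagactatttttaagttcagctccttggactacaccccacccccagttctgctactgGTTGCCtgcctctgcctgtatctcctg
Eno4: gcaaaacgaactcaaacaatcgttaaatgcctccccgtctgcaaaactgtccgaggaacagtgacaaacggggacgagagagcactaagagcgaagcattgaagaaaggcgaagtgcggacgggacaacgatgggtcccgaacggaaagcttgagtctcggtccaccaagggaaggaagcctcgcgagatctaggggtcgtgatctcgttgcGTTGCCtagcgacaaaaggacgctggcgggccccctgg
Ldhc: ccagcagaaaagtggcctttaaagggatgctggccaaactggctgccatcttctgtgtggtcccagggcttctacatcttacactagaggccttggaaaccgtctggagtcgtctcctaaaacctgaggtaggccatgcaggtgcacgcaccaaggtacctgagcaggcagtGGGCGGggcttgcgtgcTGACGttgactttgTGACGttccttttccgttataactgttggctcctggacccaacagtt

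The Ldhc window shown held the shorter form TGACG at 61 and 47 bases before the start and a GC box at 78 bases. Pgk2 held CCAAT at 86 and 52 bases before its start. Pgam2 held CCAAT at 246 bases and GTTGCC at 27 bases, and Eno4 held GTTGCC at 38 bases. Neither the Gapdhs window shown nor that of Aldoart2 held any of these 6 motifs. Nor did the windows of the other RefSeq starts of Ldhc (chr7:46861237-46861486) and Gapdhs (chr7:30739408-30739657). Distances are counted from RefSeq starts, which differ from the GENCODE positions for Ldhc, Pgk2 and Pgam2. The Ldhc and Pgk2 windows shown reach into the GENCODE gene, and the Pgam2 window stops short of it. None of the 6 motifs was in all 5 windows. Among 32817 promoter windows of the same length, 17.7% held TGACG, 32.7% the GC box, 33.8% CCAAT, 10.4% GTTGCC, 12.4% TATAAA and 1.55% the full TGACGTCA, so single matches of this kind were common. The MYB core AACNG, also searched, was in 74.2% of windows and is not capitalised.

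The deposited values were taken as FPKM (fragments scaled to transcript length and to the depth of the library), so that levels can be compared between genes. Summed over all genes, a library held 561038 to 622169 FPKM. The number of reads is unknown, so counting error could not be given. Replicates of a group correlated at 0.978 or above across genes. Spermatid transcripts were abundant: Prm2, a protamine that packs sperm DNA, stood at 11440 ± 1361 FPKM in the controls (SD, n = 3). STZ replicate 1 stood apart from STZ replicates 2 and 3. On the log2(FPKM + 1) scale, the median Leydig marker was 1.43 below the control mean in STZ replicate 1 but 0.81 and 1.15 above it in replicates 2 and 3. Results that rest on the STZ group are therefore also given without that library; for the gene lists and the widely expressed forms, leaving it out was chosen after seeing the data. Without it, 47.9% of 13966 tested genes were called higher in the STZ group and 15.1% lower.

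Ldhc, the lactate dehydrogenase of the germ line, had the highest level of the 7 in every group. In the controls it averaged 2309 ± 39.4 FPKM (SD, n = 3). Pgam2 followed at 1129 ± 79.8 FPKM and Gapdhs at 1081 ± 53.95 FPKM, and the libraries of these neighbours overlapped. Pgk2 came next at 574 ± 9.87 FPKM, then Aldoart2 at 238 ± 7.78 FPKM, Aldoart1 at 76.3 ± 3.89 FPKM and Eno4 at 18.7 ± 5.04 FPKM. Apart from Pgam2 and Gapdhs, no neighbours in this order had overlapping control libraries. The order was the same in the STZ, STZ + AOS and both transplant groups, with Pgam2 and Gapdhs overlapping in each. In the AOS group alone Gapdhs (1214 ± 17.45 FPKM) stood above Pgam2 (1136 ± 46.2 FPKM), with no overlap. The 7 genes together made up 0.919%, 0.913% and 0.911% of all FPKM in control replicates 1 to 3.

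**Figure D1:**
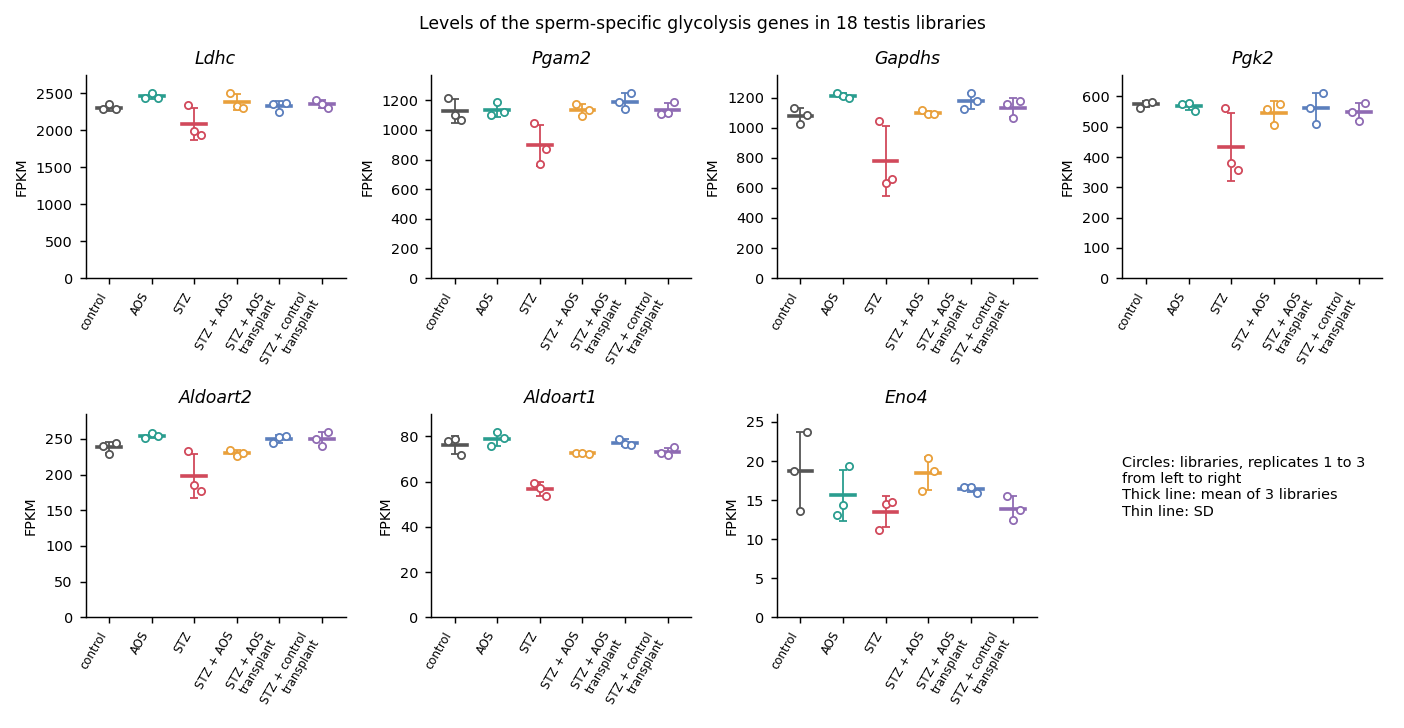
FPKM of each gene (vertical axis, from 0) in the 6 groups (horizontal axis). Circles are libraries, thick lines means of 3 libraries and thin lines SDs; the STZ group has the lowest mean for all 7 genes, and STZ replicate 1 is the highest STZ library for every gene except Eno4.

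The first comparison asks what streptozotocin alone did to these genes. Of the 7, 6 were lower in the STZ group than in the controls (limma, adjusted p under 0.05 over 14164 genes), and the median of all 7 was -0.42 on the log2 scale. Across all tested genes 12.0% were called lower and 43.2% higher, with a median of 0.17. The largest of the 7 differences was that of Gapdhs, at 0.70 times the control level, and Ldhc did not pass. In bulk tissue, fewer cells of a type and less RNA per cell cannot be told apart.

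Among the enzymes of the lower, energy-yielding steps, Gapdhs, the sperm form of glyceraldehyde-3-phosphate dehydrogenase, stood at 1134, 1027 and 1083 FPKM in control replicates 1 to 3. In STZ replicates 1 to 3 it stood at 1045, 634 and 659 FPKM. The first of these lay within the control range and the other 2 far below it. The log2 fold change was -0.51 (SE 0.13, limma adjusted p = 0.00364), and without STZ replicate 1 it was -0.74.

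Pgk2, which makes ATP at the next step as phosphoglycerate kinase, stood at 563, 579 and 581 FPKM in the controls. Its STZ libraries held 561, 381 and 357 FPKM. The groups did not overlap, but STZ replicate 1 missed the lowest control by a narrow margin. The fold change was -0.44 (SE 0.12, limma adjusted p = 0.00684), and -0.64 without that library.

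Pgam2, phosphoglycerate mutase of muscle and late germ cells, stood at 1218, 1101 and 1066 FPKM in the controls against 1047, 773 and 869 FPKM in the STZ libraries. The groups did not overlap. Its fold change was -0.34 (SE 0.09, limma adjusted p = 0.00391) on the log2 scale, and -0.46 without STZ replicate 1. Because Pgam2 is also the skeletal muscle form, 17 muscle genes were examined beside it. Their summed level was 13.7 to 38.1 FPKM over the 18 libraries, with Ckm, muscle creatine kinase, at 0.2 to 0.99 FPKM and Myh4, a fast muscle myosin, at 0.07 FPKM or less. In the same libraries Pgam2 ranged from 773 to 1249 FPKM. Of the 6 muscle genes that passed the filter, 3 were higher in the STZ group, a share near that of all genes (43.2%), and none was lower. With STZ replicate 1 left out, 4 of the 6 were higher.

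Eno4, an enolase of sperm, had a low and variable level of 18.8, 13.6 and 23.7 FPKM in the controls and 11.2, 14.5 and 14.8 FPKM in the STZ libraries. These groups overlapped. Its fold change of -0.41 (SE 0.17) passed narrowly in limma (adjusted p = 0.0467). That call ended without STZ replicate 1 (-0.30, adjusted p = 0.165), STZ replicate 2 (adjusted p = 0.0569), STZ replicate 3 (adjusted p = 0.0534), control replicate 1 (adjusted p = 0.106) or control replicate 3 (adjusted p = 0.244), and with no filter on low values (adjusted p = 0.0652).

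Aldoart1 and Aldoart2 encode aldolases, which split the sugar before the energy-yielding steps. Aldoart1 stood at 77.9, 79.0 and 71.8 FPKM in the controls and at 59.55, 57.0 and 53.5 FPKM in the STZ libraries. All 3 STZ libraries lay well below all 3 controls, and here STZ replicate 1 was low with the others. The fold change was -0.42 (SE 0.05, limma adjusted p = 5.18e-06), and -0.46 without STZ replicate 1. Aldoart2 stood at 239, 229.5 and 245 FPKM in the controls and at 233, 185 and 176 FPKM in the STZ libraries, the first of which overlapped the controls. Its fold change was -0.27 (SE 0.07, limma adjusted p = 0.00618), and -0.39 without STZ replicate 1.

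Ldhc closes the pathway by regenerating the NAD+ that Gapdhs consumes. It stood at 2287, 2354 and 2285 FPKM in the controls and at 2338, 1995 and 1938 FPKM in the STZ libraries. STZ replicate 1 lay inside the control range. The fold change of -0.15 (SE 0.07) was not called in limma (adjusted p = 0.0688), with a 95% interval from -0.29 to -0.01. It depended on the libraries and the scaling: it was -0.23 without STZ replicate 1 (adjusted p = 0.000283), -0.49 after centring each library on its median gene (adjusted p = 0.000806) and 0.23, a higher level, after quantile normalization (adjusted p = 0.00138).

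Relative to the control mean, STZ replicate 1 was within 0.11 on the log2 scale for Pgk2 (-0.03), Gapdhs (-0.05), Ldhc (0.02), Aldoart2 (-0.03) and Pgam2 (-0.11). STZ replicates 2 and 3 were at -0.59 and -0.69 for Pgk2 and at -0.77 and -0.71 for Gapdhs. Aldoart1 did not split in this way, with -0.35, -0.41 and -0.50 in replicates 1 to 3. Eno4 went the other way, with -0.65 in replicate 1 and -0.31 and -0.28 in replicates 2 and 3. Only Pgk2, Aldoart1 and Pgam2 had all 3 STZ libraries below all 3 controls, against 11.5% of all tested genes.

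**Figure D2:**
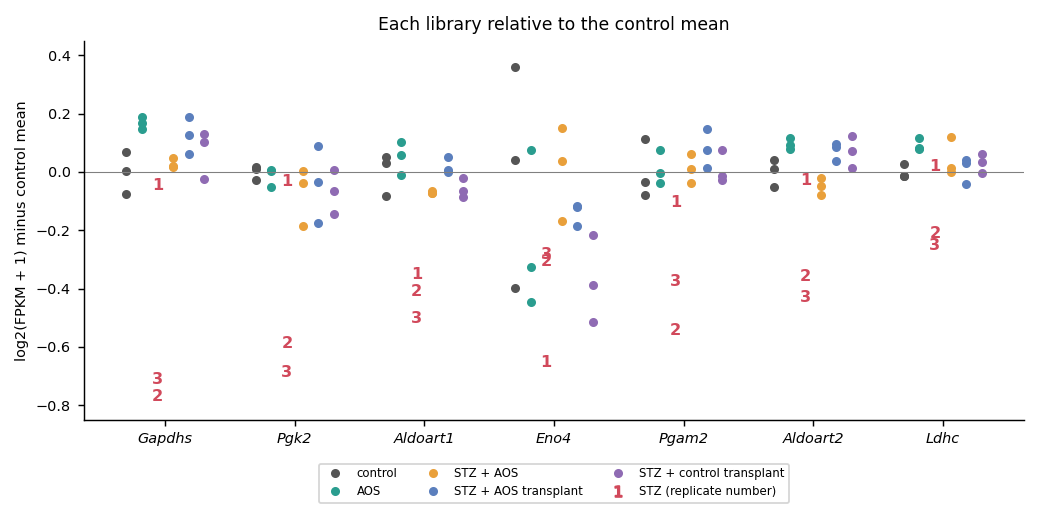
Each library's log2(FPKM + 1) minus the control mean (vertical axis) for the 7 genes (horizontal axis); dots are libraries and red digits the STZ replicate numbers. STZ replicate 1 sits near 0 for Gapdhs, Pgk2, Aldoart2 and Ldhc, but at -0.35 for Aldoart1 and -0.65 for Eno4.

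The 7 genes took 0.905%, 0.720% and 0.704% of all FPKM in STZ replicates 1 to 3, below each control share. The difference of means was -0.138 percentage points (-0.202 without STZ replicate 1), with an exact permutation p of 0.1 (two-sided), the smallest that 3 against 3 libraries allow. Within the set, ratios between members were mostly not separated: of 21 pairs, examined after the values had been seen, 3 had STZ and control libraries that did not overlap. These were Pgk2 over Ldhc (log2 difference -0.29), Ldhc over Aldoart1 (0.28) and Ldhc over Pgam2 (0.19). The smallest adjusted p over the 21 exact permutation tests was 0.7.

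How the calls depended on scaling matters here, since 43.2% of all genes were called higher in the STZ group. With quantile normalization the split of all genes was 3156 higher and 4093 lower, against 6118 and 1705 as reported, and the same 6 genes stayed lower. Under it Eno4 had the largest difference of the 7, at -0.69, while Aldoart2 stood at -0.16, Pgam2 at -0.18, Pgk2 at -0.30, Gapdhs at -0.42 and Aldoart1 at -0.45. Median centring moved it to 2678 higher and 6119 lower, with all 7 lower. Centring on 18 round spermatid genes moved it to 9719 higher and 108 lower and left only Aldoart1 called, at -0.16 (limma adjusted p = 0.0142), with Gapdhs at -0.25, Pgk2 at -0.17, Pgam2 at -0.08, Aldoart2 at -0.01, Eno4 at -0.15 and Ldhc at 0.12. These scalings moved the median gene from 0.17 to -0.06, -0.17 and 0.44. A fit of only the 2 groups compared called Aldoart1 alone (adjusted p = 0.00523), with 0.0699 for Gapdhs and 0.0724 for Pgk2.

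The same enzymatic steps are served in other cells by widely expressed forms. Of 7 such genes 4 were higher in the STZ group and none was called lower. Across all tested genes 43.2% were called higher and 12.0% lower. Pgk1, the X-linked phosphoglycerate kinase, stood at 10.0, 10.4 and 10.6 FPKM in the controls and at 14.0, 21.4 and 21.1 FPKM in the STZ libraries, a rise of 0.79 on the log2 scale (SE 0.12, limma adjusted p = 6.36e-05). Gapdh rose by 0.81 (adjusted p = 2.33e-05), from 209, 188 and 199 to 272, 376 and 413 FPKM. Pgam1, the mutase of most tissues, rose by 1.01 (adjusted p = 3.63e-05), from 37.4, 35.1 and 36.7 to 51.9, 85.6 and 91.4 FPKM. Ldhb, the heart-type lactate dehydrogenase, rose by 1.18 (adjusted p = 2.68e-08), from 73.8, 64.3 and 69.3 to 136, 166 and 172 FPKM. In each of these 4 genes the lowest STZ library was replicate 1, and it still exceeded all controls. Ldha (-0.05), Aldoa (-0.00) and Eno1 (-0.10) were not called and overlapped between the groups. With STZ replicate 1 left out, the differences were 0.98 for Pgk1, 0.98 for Gapdh, 1.26 for Pgam1 and 1.28 for Ldhb, and Ldha (-0.10, limma adjusted p = 0.0403) and Eno1 (-0.13, adjusted p = 0.0443) were called lower.

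**Figure D3:**
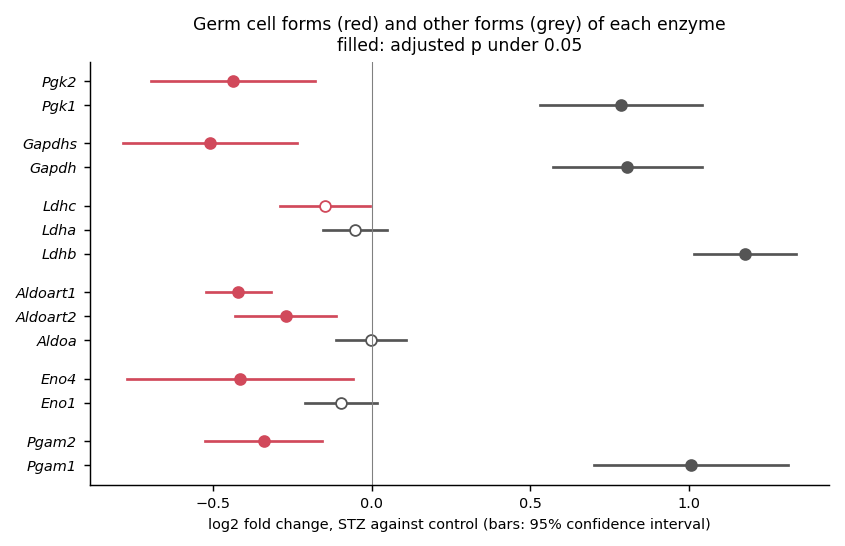
Log2 fold change of STZ against control (horizontal axis) for the germ cell forms (red) and the other forms (grey) of each enzyme, with 95% confidence intervals from limma; filled points had an adjusted p under 0.05. Pgk2, Gapdhs and Pgam2 lie below 0 while Pgk1, Gapdh and Pgam1 lie above it; Aldoa, Eno1 and Ldha lie near 0.

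Ratios within a library do not depend on a single scaling factor per library, though quantile normalization could change them. The ratio of Pgk2 to Pgk1 was 56.3, 55.8 and 54.8 in the controls and 40.1, 17.8 and 16.9 in the STZ libraries. Gapdhs over Gapdh was 5.42, 5.46 and 5.45 against 3.85, 1.69 and 1.60. Pgam2 over Pgam1 was 32.6, 31.4 and 29.1 against 20.2, 9.03 and 9.51. All 3 ratios were lower in every STZ library, STZ replicate 1 included, although that library's germ cell forms stood near the controls. The log2 differences were -1.28, -1.32 and -1.37, and without STZ replicate 1 they were -1.68, -1.73 and -1.74. Ldhc over Ldha differed by -0.10, with 4.45, 4.50 and 4.42 against 4.38, 4.11 and 4.02, and Aldoart1 over Aldoa differed by -0.42. None of these 5 ratios overlapped between the groups, and each had an exact permutation p of 0.1 (two-sided, the smallest possible; 0.233 adjusted over 63 tests). Aldoart2 over Aldoa (-0.27, exact permutation p = 0.3) and Eno4 over Eno1 (-0.34, exact permutation p = 0.4) overlapped. Without STZ replicate 1, Ldhc over Ldha differed by -0.13, Aldoart1 over Aldoa by -0.48, Aldoart2 over Aldoa by -0.41 and Eno4 over Eno1 by -0.18.

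**Figure D4:**
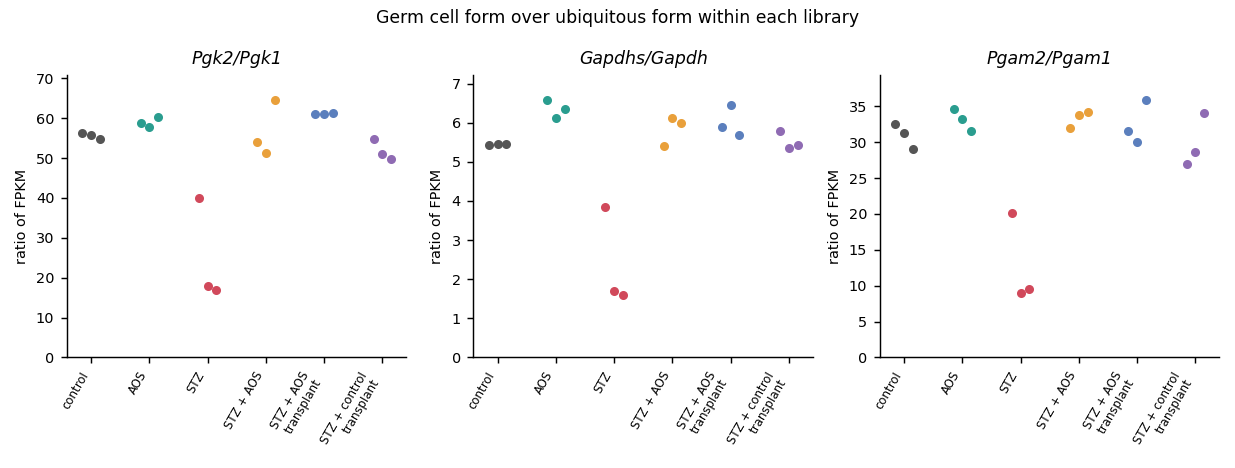
Ratio of the germ cell form to the widely expressed form (vertical axis, from 0) in each library of the 6 groups, for Pgk2/Pgk1, Gapdhs/Gapdh and Pgam2/Pgam1. STZ replicates 2 and 3 have Pgk2/Pgk1 ratios of 17.8 and 16.9 and replicate 1 has 40.1, all below the lowest other library at 49.7.

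Levels of the widely expressed forms are less certain than those of the germ cell forms, since reads can be shared with near-identical genes and the authors' handling of such reads is not given. Of all 50-base windows in 1 coding transcript per gene, some also occur in transcripts of another annotated gene. These are 82.5% for Gapdh, 72.2% for Eno1, 68.0% for Pgk1, 41.5% for Pgam1, 27.0% for Ldhb, 16.65% for Ldha and 13.5% for Aldoa. Eno1 shares 70.5% with Eno1b, which stood at 58.1 to 86.8 FPKM. Pgk2, Ldhc and Pgam2 share none. Aldoart1 shares 5.79% of its windows and Aldoart2 0.311%. Gapdhs shares 4.55%, all with the antisense gene Tmem147os, whose exons overlap it. Eno4 shares 4.69%, all with Hspa12a on the opposite strand, which stood at 1.83 to 2.78 FPKM. Whether the counting used strand is not given.

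Of 30 glycolysis and sugar or lactate transport genes, a list that includes the 7 widely expressed forms above, 27 were tested. In the STZ group 9 were higher, Pgk1, Gapdh, Pgam1 and Ldhb among them, and 4 were lower. The median was -0.00. The share called higher was below that of all genes (43.2%) and the share called lower was near it (12.0%). The 4 lower genes, named because they are so few, were the glucose transporter Slc2a3 (-0.19, limma adjusted p = 0.0196), the fructose transporter Slc2a5 (-0.24, adjusted p = 0.00062), the hexokinase Hk1 (-0.45, adjusted p = 0.00122) and the glucose-6-phosphate isomerase Gpi1 (-0.37, adjusted p = 0.0118). Hk1 stood at 553 ± 1.69 FPKM in the controls and 412 ± 91 FPKM in the STZ group (SD, n = 3). The list had 10 higher and 9 lower without STZ replicate 1. Among the higher genes were Pfkl, the liver-type phosphofructokinase, which rose by 1.54 (adjusted p = 6.46e-08), and Emb, a partner of lactate transporters, which rose by 1.88 (adjusted p = 1.15e-08).

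The fibrous sheath, to which sperm glycolytic enzymes are anchored, was represented by 9 genes. All 9 were lower in the STZ group (median -0.28), where 12.0% of all tested genes were called lower. Spa17, a sperm protein of this structure, was lower by -0.38 (limma adjusted p = 0.000787), Gstm5 by -0.35 (adjusted p = 0.00399), the anchoring protein Akap3 by -0.25 (adjusted p = 0.00207) and Ropn1l by -0.17 (adjusted p = 0.0171). Of 13 tested germ cell forms of mitochondrial and glycerol energy genes, 9 were lower and none was higher, with a median of -0.19. Ldhal6b, another testis lactate dehydrogenase, was lower by -0.26 (adjusted p = 0.000625), the cytochrome oxidase subunit Cox6b2 by -0.28 (adjusted p = 0.00273) and Spata18 by -0.70 (adjusted p = 0.000352), while Cox8c (-0.10, adjusted p = 0.138) was not called. The counts lower were again 9 of 9 and 9 of 13 without STZ replicate 1, with medians of -0.35 and -0.25.

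Marker genes of round and elongating spermatids moved with the 7 genes, and those of meiotic prophase mostly did not. The shares of all tested genes were 12.0% called lower and 43.2% higher. Of 17 elongating spermatid genes 16 were lower (median -0.50), among them Smcp (-0.70, limma adjusted p = 1.27e-05), Prm2 (-0.90, adjusted p = 0.000785), Prm3 (-0.58, adjusted p = 0.00226) and Cylc2 (-0.41, adjusted p = 9.33e-05). Of 18 round spermatid genes 15 were lower (median -0.22), among them Acr (-0.23), Tssk3 (-0.47), Spaca7 (-0.27) and Sun5 (-0.22). Of 12 meiotic prophase genes 2 were lower, Ccna1 (-0.50) and Brdt (-0.29), 1 was higher, Dmc1 (0.41), and the median was -0.03. The median of the 7 glycolysis genes, -0.42, lay between those of the round and the elongating spermatid genes. By library, the median elongating spermatid gene was at -0.09, -0.83 and -0.54 in STZ replicates 1 to 3 relative to the control mean, and the median of the 7 genes at -0.05, -0.41 and -0.43. When STZ replicate 1 was left out, 17 of 17 elongating spermatid genes (median -0.69), 15 of 18 round spermatid genes (median -0.26) and 2 of 12 meiotic genes (median 0.05) were lower.

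Of the somatic cell lists, those of Sertoli cells and macrophages were mostly called higher, where 43.2% of all tested genes were. The Leydig and erythrocyte lists were mostly not called, with medians of 0.07 and 0.08. All 14 Sertoli markers were called higher (median 1.16), and their summed level was 707 to 778 FPKM in the controls and 1736 to 2264 FPKM in the STZ libraries, with none at 0. Of 10 macrophage markers 8 were higher and 1 lower (median 1.27), with sums of 392 to 412 FPKM against 500.4 to 581 FPKM. The lower one, Aif1, made up most of the control sums: it stood at 323, 329 and 343 FPKM in the controls and at 331, 240 and 237 FPKM in STZ replicates 1 to 3. The other 9 summed to 69.2, 68.3 and 68.6 FPKM in the controls and to 169, 341 and 294 FPKM in the STZ libraries, all above the controls. Of 9 Leydig markers 1, Nr5a1 (1.23), was higher, and the sums were 3555 to 4070 FPKM in the controls against 1808, 12030 and 12850 FPKM in STZ replicates 1 to 3. Of 4 tested erythrocyte genes 1 was higher. When STZ replicate 1 was left out, 14 Sertoli (median 1.29), 9 macrophage (1.57), 6 Leydig (1.01) and 2 erythrocyte genes (0.06) were higher. The part of these cell markers in the lower levels of the 7 glycolysis genes and the higher levels of the widely expressed forms was not tested.

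**Figure D5:**
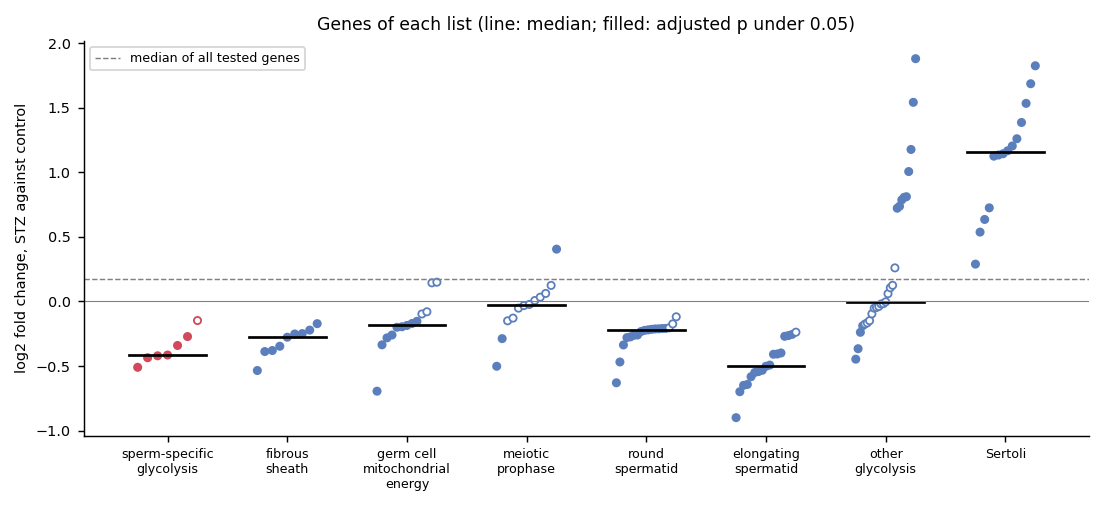
Log2 fold change of STZ against control (vertical axis) for the tested genes of 8 lists (horizontal axis); points are genes, filled where the limma adjusted p was under 0.05, black bars are list medians and the dashed line is the median of all tested genes, 0.17. The sperm-specific glycolysis genes lie between -0.51 and -0.15, the Sertoli genes between 0.29 and 1.83.

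The next comparisons ask whether the 7 genes stood higher than in the STZ group when AOS or a transplant was added. All 3 share the STZ libraries, so their results are not independent of each other, and they are given side by side. In the STZ + AOS group 7 of 7 genes were called higher than in the STZ group, where 11.9% of all genes were called higher and 43.1% lower. In the AOS-transplant group 5 of 7 were called higher (12.0% of all genes higher, 44.5% lower). In the control-transplant group it was 6 of 7 (11.4% of all genes higher, 39.9% lower). Leaving out STZ replicate 1 gave 6 of 7 in each, all but Eno4. All 3 libraries lay above all 3 STZ libraries for 4, 5 and 4 of the 7 in this order, against 11.1%, 10.7% and 11.0% of all tested genes.

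Gapdhs stood at 1118, 1093 and 1095 FPKM in the STZ + AOS group, at 1126, 1232 and 1179 FPKM in the AOS-transplant group and at 1159.8, 1063 and 1182 FPKM in the control-transplant group. All 9 values exceeded every STZ library. Its differences from the STZ group were 0.54, 0.64 and 0.58 (limma adjusted p = 0.00255, 0.000682 and 0.00169), and without STZ replicate 1 they were 0.77, 0.87 and 0.81. Pgk2 stood at 559.7, 505 and 575 FPKM, at 561, 508 and 611 FPKM and at 549, 519 and 577 FPKM in the same order, and these overlapped STZ replicate 1. Its differences were 0.36, 0.40 and 0.37 (adjusted p = 0.0194, 0.0117 and 0.0193). Without STZ replicate 1 they were 0.56, 0.60 and 0.57 (adjusted p = 6.57e-06, 3.5e-06 and 6.87e-06).

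Pgam2 stood at 1177, 1097 and 1135 FPKM with STZ + AOS, at 1187, 1139 and 1249 FPKM with the AOS transplant and at 1105, 1117 and 1188 FPKM with the control transplant. None of these libraries reached down to the STZ group, and the differences were 0.35, 0.42 and 0.35 (limma adjusted p = 0.00312, 0.000801 and 0.00347). Aldoart1 stood at 72.5, 72.7 and 72.4 FPKM, at 78.95, 76.5 and 76.3 FPKM and at 72.8, 71.8 and 75.2 FPKM. These too cleared every STZ library, with differences of 0.35, 0.44 and 0.36 (adjusted p = 2.85e-05, 3.05e-06 and 2.47e-05). Leaving out STZ replicate 1 gave differences of 0.47, 0.54 and 0.47 for Pgam2 and 0.39, 0.47 and 0.40 for Aldoart1.

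Aldoart2 stood at 234, 225 and 229.95 FPKM with STZ + AOS, at 244, 253 and 254 FPKM with the AOS transplant and at 250.04, 240.3 and 259 FPKM with the control transplant. The STZ + AOS libraries overlapped STZ replicate 1 and the transplant libraries did not. The differences were 0.22, 0.34 and 0.34 (limma adjusted p = 0.0195, 0.00113 and 0.00146), and the first of them changed sign (-0.05) with centring on the round spermatid genes. Without STZ replicate 1 the 3 differences were 0.34, 0.47 and 0.46 (adjusted p = 5.46e-06, 2.43e-07 and 3.44e-07). Ldhc stood at 2506, 2328 and 2308 FPKM, at 2359, 2245 and 2376 FPKM and at 2407, 2363 and 2300.2 FPKM. Each of these groups overlapped STZ replicate 1. Its differences were 0.19 (adjusted p = 0.0227), 0.16 (adjusted p = 0.0513, not called) and 0.18 (adjusted p = 0.0347), and after quantile normalization all 3 changed sign, to -0.12, -0.22 and -0.15. Without STZ replicate 1 they were 0.28, 0.24 and 0.26, all called (adjusted p = 5.85e-05, 0.00018 and 0.000103).

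Eno4 was the least even of the 7. It stood at 16.1, 20.4 and 18.75 FPKM with STZ + AOS, at 16.7, 16.7 and 15.9 FPKM with the AOS transplant and at 15.6, 12.5 and 13.7 FPKM with the control transplant. The first 2 groups lay above every STZ library and the last overlapped them. Its differences from the STZ group were 0.42 (limma adjusted p = 0.0438), 0.27 (adjusted p = 0.177) and 0.04 (adjusted p = 0.848). Without STZ replicate 1 they were 0.30 (adjusted p = 0.156), 0.15 (adjusted p = 0.471) and -0.08 (adjusted p = 0.725).

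These calls leaned on single libraries. Of the 7 genes higher with STZ + AOS, 3 remained called without STZ replicate 2 and 3 without STZ replicate 3, namely Gapdhs, Aldoart1 and Pgam2 in both cases, and 4 without STZ + AOS replicate 1. Eno4 lost its call there without STZ replicate 1 (adjusted p = 0.156), STZ + AOS replicate 2 (adjusted p = 0.141) or STZ + AOS replicate 3 (adjusted p = 0.0962). Pgk2 lost its call in all 3 comparisons without STZ replicate 2 (adjusted p = 0.0883, 0.0585 and 0.0891) and without STZ replicate 3 (adjusted p = 0.122, 0.0777 and 0.121), and also without the third library of the STZ + AOS (adjusted p = 0.0662), AOS-transplant (0.0544) or control-transplant group (0.0668). The call of Ldhc in the control-transplant group ended without any of that group's libraries (adjusted p = 0.103, 0.0747 and 0.0541 for replicates 1 to 3) and without STZ replicate 2 (0.109) or 3 (0.16). A fit of only the groups compared called 2, 4 and 1 of the 7, and centring on the round spermatid genes called 1, 2 and 1.

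The elongating spermatid, fibrous sheath and Sertoli lists moved with these comparisons as well. Of the 17 elongating spermatid genes 16, 15 and 16 were higher than in the STZ group with STZ + AOS, the AOS transplant and the control transplant, and of the 9 fibrous sheath genes 7, 8 and 9. All 14 Sertoli markers were lower in all 3 comparisons. Across all tested genes 11.9%, 12.0% and 11.4% were called higher and 43.1%, 44.5% and 39.9% lower. Leaving out STZ replicate 1, all 17, all 9 and all 14 were called in these directions in each comparison. The shares of all genes were then 15.1%, 14.9% and 14.8% higher and 47.4%, 49.0% and 45.9% lower. Of 12 meiotic prophase genes 3, 2 and 2 were higher and 1, 1 and 2 lower in the same order. Without STZ replicate 1 it was 2, 2 and 2 higher and 2, 4 and 5 lower. Of 9 Leydig markers 6, 1 and 1 were lower, and 8 in each comparison without STZ replicate 1. Pgk2 over Pgk1 was 51.2 to 64.5 with STZ + AOS, 61.0 to 61.3 with the AOS transplant and 49.7 to 54.8 with the control transplant, against 54.8 to 56.3 in the controls. Gapdhs over Gapdh was 5.42 to 6.11, 5.70 to 6.45 and 5.36 to 5.80 in the same groups.

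Set against the controls, none of the 7 genes was called in the STZ + AOS, AOS-transplant or control-transplant group (limma; 0.0424%, 0% and 0% of all genes were called, with 1130, 927 and 883 genes at an unadjusted p under 0.05). The libraries of each gene overlapped the controls in all 3 groups. For Gapdhs the 95% intervals of the log2 difference from control ran from -0.25 to 0.30, from -0.15 to 0.40 and from -0.20 to 0.34. For Pgk2 they ran from -0.33 to 0.19, from -0.30 to 0.22 and from -0.33 to 0.19, so a residual loss of the size seen for Aldoart2 in the STZ group could not be resolved for Pgk2. The furthest from control was Eno4 in the control-transplant group, at -0.37 (interval -0.73 to -0.02, adjusted p = 0.793). The AOS-transplant libraries had a higher share of all FPKM in the 7 genes, 0.936% against 0.914%, without overlap. Their log2 ratios Pgk2/Pgk1 and Gapdhs/Gapdh were higher (0.14 each) and Ldhc/Ldha lower (-0.03), without overlap. In the control-transplant group Pgk2/Pgk1 (-0.10) and Aldoart1/Aldoa (-0.135) were lower without overlap. Each had an exact permutation p of 0.1, the smallest possible. The other shares and ratios overlapped.

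The series title singles out the AOS transplant, which makes the contrast of the transplant groups the direct one. No gene of the 7 was called between the AOS-transplant and the control-transplant group, and 0% of all genes were (limma, with 866 genes at an unadjusted p under 0.05). Pgk2 differed by 0.03 (95% interval -0.23 to 0.29), Gapdhs by 0.06 (-0.22 to 0.33), Pgam2 by 0.07 (-0.12 to 0.25), Ldhc by -0.02 (-0.16 to 0.12) and Aldoart2 by 0.00 (-0.16 to 0.16). Aldoart1 (0.07, interval -0.03 to 0.18) and Eno4 (0.23, interval -0.13 to 0.59) had all 3 AOS-transplant libraries above all 3 control-transplant libraries, at adjusted p = 0.89 and 0.902, where 3.71% of all tested genes had such libraries. Of the ratios to the widely expressed forms, only Pgk2 over Pgk1 did not overlap. It was higher with the AOS transplant by 0.24 on the log2 scale (exact permutation p = 0.1, the smallest possible, and 0.233 adjusted over 63 tests).

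AOS given without streptozotocin changed none of the 7 by the test (limma, 0% of all genes called, with 1273 genes at an unadjusted p under 0.05). In the AOS group Gapdhs stood at 1231, 1214 and 1197 FPKM, Ldhc at 2442, 2501 and 2436 FPKM and Aldoart2 at 252, 258 and 254 FPKM. All 3 AOS libraries lay above all 3 controls for each of these genes, against 7.65% of all tested genes. The log2 differences were 0.17 (95% interval -0.11 to 0.44), 0.09 (-0.05 to 0.23) and 0.10 (-0.06 to 0.26). The other 4 overlapped: Pgk2 stood at 576, 578 and 553 FPKM, Pgam2 at 1098, 1187.5 and 1123 FPKM, Aldoart1 at 75.65, 81.8 and 79.4 FPKM and Eno4 at 13.1, 14.4 and 19.3 FPKM. In the same libraries the summed elongating spermatid genes stood at 68910 to 70610 FPKM, above the 57190 to 63690 FPKM of the controls. None of those 17 genes was called, and their log2 differences ran from -0.09 to 0.40 (median 0.09). The 7 genes took a mean of 0.936% of all FPKM against 0.914% in the controls, without overlap. The log2 ratios Pgk2/Pgk1, Gapdhs/Gapdh and Ldhc/Ldha were also higher without overlap, by 0.08, 0.22 and 0.04. Each of these differences had an exact permutation p of 0.1, as between STZ and control, and the other ratios overlapped.

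Whether AOS acted differently with and without streptozotocin was tested as an interaction, the STZ + AOS minus STZ difference less the AOS minus control difference. Aldoart1, Eno4 and Pgam2 were called, all with a more positive AOS difference under streptozotocin, where 6.12% of all genes were called in that direction and 29.1% in the other. Over all 6 groups at once, 5 of the 7 differed in limma's F test, against 52.3% of all genes. Aldoart1 had the smallest adjusted p (1.19e-05), followed by Gapdhs (0.00359), Aldoart2 (0.00494), Pgam2 (0.00802) and Pgk2 (0.043), while Ldhc (0.0744) and Eno4 (0.141) did not pass.

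Genes whose levels followed each of the 7 most closely were chosen by Pearson's r of log2(FPKM + 1) over the 18 libraries. The STZ libraries lie apart, so the r over the other 15 libraries is given beside it, as a description. Tcp11, a testis gene, was closest to Gapdhs (0.992, and 0.942 without the STZ libraries) and Mfap3l to Pgk2 (0.976 and 0.794). Phkg2, the testis and liver catalytic subunit of phosphorylase kinase, which starts glycogen breakdown, was closest to Pgam2 (0.973 and 0.809). Ubxn11 was closest to Aldoart2 (0.961 and 0.746), Hrasls5 to Aldoart1 (0.952 and 0.612), Ypel1 to Ldhc (0.945 and 0.902) and Gm5169 to Eno4 (0.793 and 0.741). Between the 7 genes, Gapdhs and Aldoart2 were the closest pair (0.965 and 0.807). Pgk2 and Gapdhs, at 0.90 over 18 libraries, stood at 0.07 without the STZ libraries, so their likeness rested on that group. Eno4 followed none of the other members, with r between 0.005 and 0.28 over the 18 libraries.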

How the data were processed

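The deposited table holds 1 value per gene and library for 18 testis libraries. Its header names no unit; the authors' deposited values were taken as FPKM from their behaviour, and RPKM cannot be told apart from it. Per the submitters' processing notes, Bowtie 0.12.2 and the build mm10 were used, with no role stated; the sources used here name no counter, annotation, strand setting or scaling step. Read depth is unknown, so counting error could not be given; the number of libraries limits precision too. Genes with at least 1 FPKM in at least 3 libraries were kept (14164 of 20985). Values were tested as log2(FPKM + 1), which understates changes of low genes, with limma 3.58.1 (R 4.3.3; trend, 1 model of 6 group means, two-sided, Benjamini-Hochberg over all genes tested in a comparison, called at adjusted p under 0.05). Summed shares and ratios were compared by exact permutation tests. The script was tested on simulated data. Gene positions come from GENCODE M21 and promoter sequences from RefSeq. The members, lists and rules were chosen with earlier results of these data known. Beside the members and the widely expressed forms, up to 4 genes of each list with the smallest F test p were named, for example Spa17; Slc2a3, Slc2a5, Hk1, Gpi1 and Aif1 were named after their values were seen. Alternatives were a pseudocount of 0.1, no filter, a filter of 5 FPKM, 3 other scalings, a fit of the compared groups, a replicate block and leaving out each library.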

Additional observations from a re-analysis of the deposited data

Results flagged for a closer look

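The following differences between the AOS effect with and without streptozotocin passed limma's interaction test (log2 scale, adjusted over all 14164 genes). For Aldoart1 the interaction was 0.30 (adjusted p = 0.00403), for Pgam2 0.34 (adjusted p = 0.0418) and for Eno4 0.65 (adjusted p = 0.0432). AOS minus control was 0.05, 0.01 and -0.23 for these genes and STZ + AOS minus STZ was 0.35, 0.35 and 0.42. Of the widely expressed forms, Pgk1 had -0.78 (adjusted p = 0.00305), Gapdh -0.82 (adjusted p = 0.00125), Pgam1 -1.01 (adjusted p = 0.00184) and Ldhb -1.17 (adjusted p = 1.06e-05). The interactions of Pgk2 (0.38, adjusted p = 0.0995), Gapdhs (0.37, adjusted p = 0.126), Aldoart2 (0.12, adjusted p = 0.374) and Ldhc (0.10, adjusted p = 0.425) were not called. The count of 3 members called fell to 1 without control replicate 1, AOS replicate 1, STZ replicate 2, STZ replicate 3, STZ + AOS replicate 2 or STZ + AOS replicate 3, and rose to 6 without STZ replicate 1.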

How the results depend on the processing

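Counts of the 7 genes called were within 1.5 times the reported count with a pseudocount of 0.1, a filter of 5 FPKM, quantile normalization and the replicate block, in all 11 comparisons. Centring on the round spermatid genes gave 1 (STZ against control), 1, 2 and 1 (STZ + AOS, AOS transplant and control transplant against STZ), 0 (interaction) and 2 (any difference among groups). Fitting only the groups compared gave 1 (STZ against control), 2 (STZ + AOS against STZ), 1 (control transplant against STZ) and 1 (interaction). The interaction count was 1 with no filter and 7 with median centring. Leaving out each library gave 1 to 6 for the interaction, 3 to 6 for STZ + AOS against STZ and 3 to 6 for the F test. Directions reversed for Ldhc after quantile normalization, at 0.23 (STZ against control), -0.12, -0.22 and -0.15 (against STZ), and after centring on the round spermatid genes, at -0.083 (STZ + AOS against STZ) and -0.068 (control transplant against STZ), as did Aldoart2 at -0.052 (STZ + AOS against STZ); differences that were not called also changed sign there, Ldhc at 0.12 (STZ against control) and -0.095 (AOS transplant against STZ) and Eno4 at -0.20 (control transplant against STZ). The cause was not tested. With the replicate block 6 genes were called in STZ against control and 7 in STZ + AOS against STZ, and Ldhc passed in AOS transplant against STZ (adjusted p = 0.0473), for 6 in place of 5. Replicate numbers do not pair the libraries: same-numbered pairs correlated at -0.205 to 0.201, and 4 of 18 libraries correlated best with their own number. Read depth is unknown, and 3 libraries a group limit what can be resolved, most of all for Eno4.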
